A study of Rattus norvegicus with 24 samples.

Results

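The genes that mark serotonin neurons were followed across 24 rat arrays: Tph2, Slc6a4, Fev, Gata3 and Gata2. A probe set, the group of probes that reports 1 transcript on the array, was taken for a gene when the array annotation gave that gene as its only symbol, and no probe set was left out for low intensity. By that rule 4 of the 5 genes had a probe set, with 6 probe sets of the 31042 tested, and the genes with a probe set numbered 14217 in all. Tph2 had none under that rule and was not analysed here. A gene was represented by its brightest probe set over all arrays, and the second probe sets of Gata2 and Gata3 are described beside it.

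The tissues came from the spontaneously hypertensive rat (SHR), an inbred strain with high blood pressure, and from the Wistar-Kyoto rat (WKY), its usual control with normal blood pressure. The groups were the rostral ventrolateral medulla (RVLM) of SHR with 5 arrays, the pituitary neurointermediate lobe (NIL) of SHR with 5, the paraventricular nucleus (PVN) of SHR with 5, the supraoptic nucleus (SON) of SHR with 4, and the RVLM of WKY with 5. All rats were male and 10 to 13 weeks old (10 to 12 weeks for NIL replicate 2), no treatment is named in the labels, and each array held RNA pooled from 5 animals, so n counts pools of whole dissected tissue. Pools say nothing about the spread between single rats, and in such tissue fewer cells of a type and less RNA per cell cannot be told apart.

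Serotonin is made from tryptophan by tryptophan hydroxylase, encoded by Tph2 in neurons, and by the decarboxylase Ddc. It is loaded into vesicles by Slc18a2, taken back into the cell by the transporter Slc6a4 and broken down by the monoamine oxidases Maoa and Maob. In mouse, Gata2 and Gata3 act upstream of the ETS factor Fev (Pet-1), which switches on the synthesis and transport genes and keeps them on. Serotonin neurons of the lower medulla lie in the raphe and beside the pyramids, next to the RVLM, and project to the spinal neurons of the sympathetic outflow. Neither GATA factor is specific to them: both are used by groups of GABA neurons, and Gata2 also by endothelium, blood precursors and mast cells and by hormone cells of the anterior pituitary.

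Since GATA factors act upstream in this programme, the 250 bases before the gene start were searched for GATAA, the core of GATA sites, and for CGGAAG, the core of ETS sites such as Fev uses, on both strands. RefSeq promoters on GRCr8 were matched for 4 of the 5 genes, all but Slc6a4. GATAA occurred in 2 of these, Tph2 and Fev, and in 0 of the other 2, Gata3 and Gata2, and CGGAAG in 0 of the 4. Over 33469 promoters of the same length, 23.5% held GATAA and 13.9% held CGGAAG. The promoters with a match are shown on the strand of the gene with GATAA in capitals, where its first base lies at position −143 from the gene start in Tph2 (chr7:52675640-52675889, minus strand) and at −130 in Fev (chr9:83891719-83891968, minus strand). The motifs do not overlap each other. A match is a run of letters and shows no binding.
Tph2: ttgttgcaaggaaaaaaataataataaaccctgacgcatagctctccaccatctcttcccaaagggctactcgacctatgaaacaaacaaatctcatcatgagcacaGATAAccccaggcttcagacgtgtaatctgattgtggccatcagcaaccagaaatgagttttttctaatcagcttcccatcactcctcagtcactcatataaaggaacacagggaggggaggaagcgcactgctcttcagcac
Fev: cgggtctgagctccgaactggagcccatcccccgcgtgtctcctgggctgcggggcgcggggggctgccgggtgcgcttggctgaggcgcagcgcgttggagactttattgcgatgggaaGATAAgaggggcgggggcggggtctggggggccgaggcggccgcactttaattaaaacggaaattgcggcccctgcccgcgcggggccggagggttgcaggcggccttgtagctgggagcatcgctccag

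The arrays were alike in scale, with median intensities of 35.9 to 46.5, and the number of arrays limits the precision. Over all probe sets, arrays correlated with the others of their group at a Spearman rho of 0.956 to 0.969 in SHR RVLM, 0.956 to 0.968 in NIL, 0.964 to 0.971 in SON and 0.964 to 0.967 in WKY RVLM. SHR PVN replicate 3 stood apart, at 0.916 with the other PVN arrays and 0.939 with the SON arrays, and the calls that use the PVN were also made without it. Pnmt, the Hox genes and the vasopressin and oxytocin genes were where the labels put them. Pnmt, the enzyme that makes adrenaline, averaged 192 ± 50.8 (SD, n = 5) in SHR RVLM, against 3.00 to 7.39 as group means in NIL, PVN and SON, and 178 ± 39.1 in WKY RVLM. The other catecholamine genes did not all follow Pnmt. Dbh was called higher in SHR RVLM than in each other SHR structure. Th was called higher than in NIL but lower than in PVN and SON, and Slc6a2 lower than in PVN. The list of 4 summed to 285 to 436 in SHR RVLM, against 24.8 to 68.1 in NIL, 181 to 431 in PVN and 457 to 557 in SON. All 4 measured Hox genes of the medulla (of 7 listed) were called higher in SHR RVLM than in each other SHR structure. The vasopressin and oxytocin genes together summed to 20.1 to 32.5 per array in SHR RVLM, against 7331 to 10520 in PVN and 8776 to 10410 in SON.

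Slc6a4, the serotonin transporter, was higher in the RVLM than in the other 3 SHR structures. Its intensity was 39.8, 37.2, 52.6, 26.6 and 41.5 on the SHR RVLM arrays. It was 6.12, 23.9, 26.1, 28.9 and 26.3 on the NIL arrays, 12.3, 23.4, 15.3, 31.0 and 13.0 on the PVN arrays, and 11.7, 3.77, 23.9 and 3.75 on the SON arrays. Every SHR RVLM array lay above every SON array, while SHR RVLM replicate 4 overlapped the brightest NIL and PVN arrays. Among genes, 14.1% were higher in SHR RVLM than in SON with no overlap.

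The differences were tested with limma on log2(intensity + 16), with Benjamini-Hochberg adjustment over all 31042 probe sets, and a difference was called at an adjusted p under 0.05. The added 16 damps low values, so the log2 differences of dim genes understate their change. Slc6a4 was higher by 0.63 in SHR RVLM than in NIL (SE 0.210, limma adjusted p = 0.0163), by 0.72 than in PVN (SE 0.210, adjusted p = 0.0111) and by 1.15 than in SON (SE 0.223, adjusted p = 0.000403). These comparisons share the 5 SHR RVLM arrays and are not independent of each other. The order of the means was 39.6 ± 9.33 in SHR RVLM, 22.3 ± 9.20 in NIL, 18.98 ± 8.02 in PVN and 10.8 ± 9.52 in SON (SD). Neighbours below the RVLM did not pass the test: the difference was 0.09 for NIL minus PVN (95% interval −0.34 to 0.53, adjusted p = 0.767) and 0.42 for PVN minus SON (−0.04 to 0.89, adjusted p = 0.280), and NIL minus SON gave 0.52 (adjusted p = 0.0781).

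Single arrays weighed on the NIL values. Without NIL replicate 1, the array at 6.12, the RVLM minus NIL difference was 0.45 and was no longer called (adjusted p = 0.0651), and NIL minus SON became 0.70 (adjusted p = 0.0123). Without SON replicate 3, NIL minus SON was 0.73 (adjusted p = 0.0146). The RVLM minus PVN and RVLM minus SON calls held with any 1 array left out, and the first was 0.70 (adjusted p = 0.0184) without PVN replicate 3. Without that array NIL minus PVN was 0.07 and PVN minus SON 0.45, neither called. The size of the Slc6a4 differences depended on the pseudocount. With none, RVLM minus SON was 2.36 (adjusted p = 0.000993), RVLM minus PVN 1.17 and RVLM minus NIL 1.07, and the last 2 were not called (adjusted p = 0.0672 and 0.0681). With a pseudocount of 64 they were 0.50, 0.34 and 0.30 in the same order, all called.

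**Figure D1:**
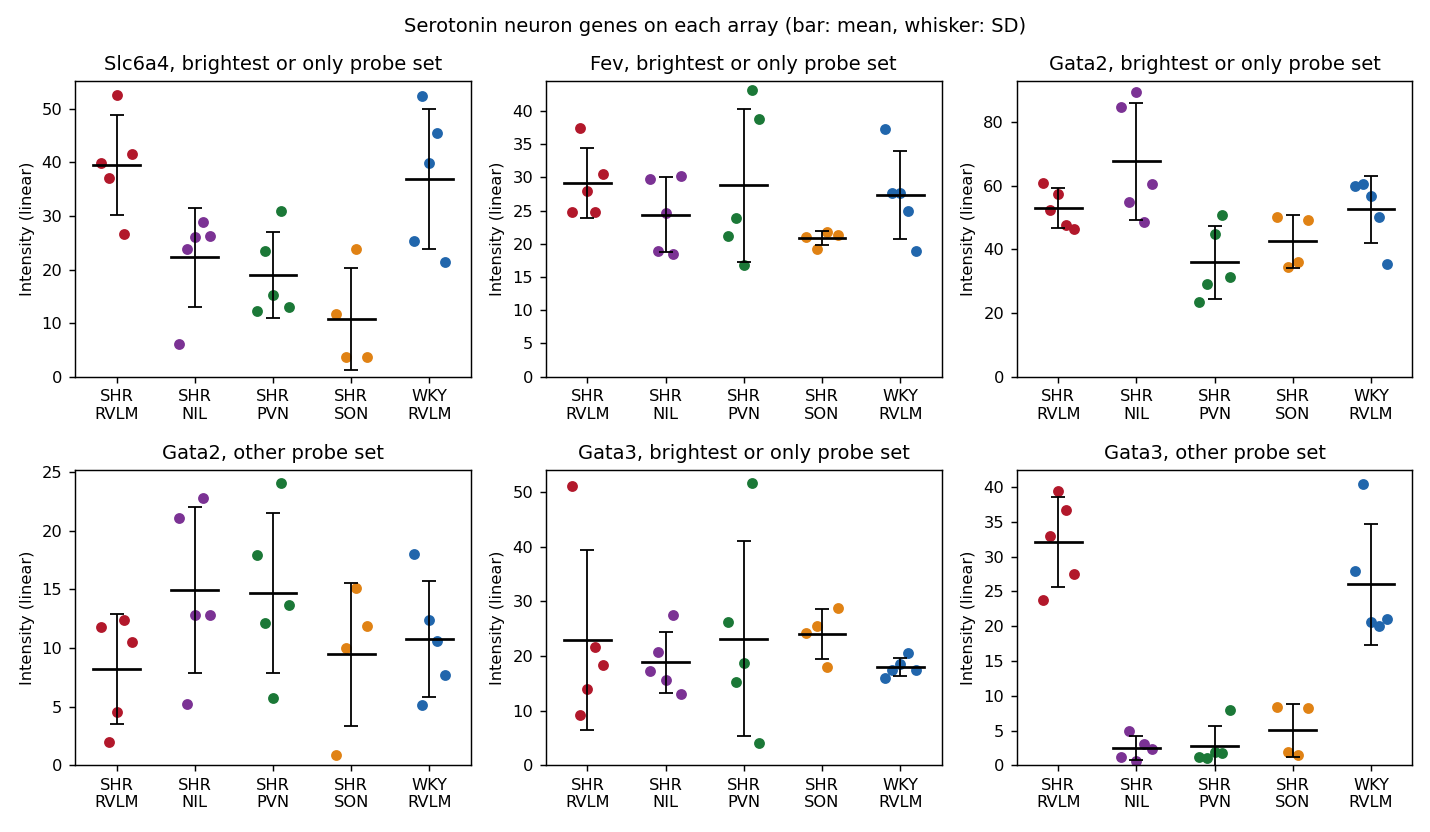
Linear intensity (vertical axis) of the 6 probe sets on each array, 1 panel per probe set, with groups along the horizontal axis; points are arrays of 5 pooled rats, thick bars are group means and whiskers are SD. Slc6a4 and the other probe set of Gata3 sit highest in the RVLM groups, whereas the groups overlap for the brightest probe set of Gata3. For Fev every SHR RVLM array lies above every SON array, as for 14.1% of all genes.

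The brightness of Slc6a4 was moderate even where it was highest. On the median SHR RVLM array it exceeded 49.0% of all probe sets (40.5 to 57.6% over the arrays), against 37.5% in NIL, 27.8% in PVN, 15.8% in SON and 49.3% in WKY RVLM. Detection calls were not used here, so it is not known which of these values exceed background. Brightness also depends on the probes, so these ranks are not compared between genes.

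Fev, the ETS factor that defines serotonin neurons, had no called difference between any pair of structures. Its intensity was 24.8, 37.5, 28.0, 24.7 and 30.4 on the SHR RVLM arrays, and 29.7, 18.9, 24.7, 18.5 and 30.1 on the NIL arrays. It was 21.2, 23.9, 16.8, 43.2 and 38.8 on the PVN arrays, and 21.1, 19.3, 21.7 and 21.4 on the SON arrays. All SHR RVLM arrays exceeded all SON arrays, as they did for 14.1% of all genes. The RVLM overlapped the NIL and the PVN, and PVN replicates 4 and 5 held the highest values of all. The difference was 0.33 for RVLM minus SON (95% interval 0.02 to 0.64, adjusted p = 0.0967), 0.22 for RVLM minus NIL (−0.07 to 0.51, adjusted p = 0.212) and 0.08 for RVLM minus PVN (−0.21 to 0.37, adjusted p = 0.720). The last was −0.012 without PVN replicate 3. With only the RVLM and SON arrays in the fit, Fev was called (0.33, adjusted p = 0.0483).

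Gata2 followed another order, with the pituitary lobe highest. The intensity of its brightest probe set was 61.0, 52.4, 57.3, 47.8 and 46.2 on the SHR RVLM arrays, and 84.8, 54.7, 89.5, 48.5 and 60.4 on the NIL arrays. It was 23.6, 29.0, 44.9, 50.8 and 31.4 on the PVN arrays, and 50.3, 34.4, 36.0 and 49.2 on the SON arrays. The NIL overlapped both hypothalamic nuclei through its replicate 4, and the RVLM overlapped the PVN. Gata2 was higher by 0.66 in NIL than in PVN (SE 0.158, limma adjusted p = 0.00188), by 0.49 in NIL than in SON (SE 0.168, adjusted p = 0.0273) and by 0.47 in SHR RVLM than in PVN (SE 0.158, adjusted p = 0.0255). The neighbours in the order did not pass: RVLM minus NIL was −0.19 (95% interval −0.52 to 0.14), RVLM minus SON was 0.30 (−0.05 to 0.65) and PVN minus SON was −0.17 (−0.52 to 0.18).

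The NIL minus PVN call of Gata2 held with any 1 array left out (0.74 and adjusted p = 0.000691 without PVN replicate 3), and the other calls did not. RVLM minus PVN lost its call without SHR RVLM replicate 1 or 3 or PVN replicate 1, 2 or 5, with adjusted p of 0.0571 to 0.0645, and had adjusted p = 0.00981 without PVN replicate 3. NIL minus SON lost its call without NIL replicate 1 or 3 or SON replicate 2 or 3, with adjusted p of 0.0813 to 0.0905. The second probe set of Gata2 was dimmer, with group means of 8.25 ± 4.69 in SHR RVLM, 14.95 ± 7.11 in NIL, 14.7 ± 6.82 in PVN, 9.48 ± 6.08 in SON and 10.8 ± 4.92 in WKY RVLM (SD). None of its 7 differences was called, and RVLM minus PVN, at −0.31 (adjusted p = 0.244), had the opposite sign to the brightest probe set.

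Markers of blood, of melanotrophs and of other cells that use Gata2 were set beside the NIL values, and not all were higher there. Of 9 anterior pituitary genes 8 were called higher in NIL than in PVN and 7 higher than in SON, where 47.1% and 42.1% of all genes were called in either direction, among them the prolactin gene Prl, and their summed intensity was 3018 to 16820 per NIL array, against 146 to 300 in PVN and 152 to 239 in SON. Of 3 measured melanotroph genes 3 were called higher in both comparisons, with sums of 2108 to 3103 in NIL, against 103 to 176 in PVN and 84.6 to 125 in SON. Blood and mast cell genes summed to 2921 to 4812 in NIL, against 487 to 1610 in PVN and 926 to 1466 in SON, with 3 of 5 called higher in each. These were Hbb, Alas2 and Kit, while the mast cell genes Cpa3 and Mcpt1l1 were called in neither. Endothelial genes summed to 586 to 704 in NIL, against 758 to 1068 in PVN and 792 to 1216 in SON. Of 5 measured endothelial genes (of 6 listed), 2 were called higher in NIL than in PVN (Pecam1 and Kdr) and 2 higher than in SON (Flt1 and Kdr). Cldn5 was called lower in both. In NIL minus PVN the difference was −3.26 for Cldn5 and 1.70 for Kdr, so the sum and the single genes did not go the same way. The median difference of the 5 genes was 0.25 from PVN and 0.34 from SON. Without PVN replicate 3, 3 were higher in NIL than in PVN. On NIL replicates 1 to 5 the anterior pituitary genes summed to 11920, 16820, 5922, 5824 and 3018. Gata2 was 84.8, 54.7, 89.5, 48.5 and 60.4 on the same arrays. The part of these cell types in the Gata2 difference was not tested.

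The 2 probe sets of Gata3 disagreed. The brightest one was 51.2, 9.26, 14.0, 21.7 and 18.5 on the SHR RVLM arrays, and 17.3, 20.7, 15.6, 27.6 and 13.1 on the NIL arrays. It was 26.2, 15.2, 18.8, 51.7 and 4.06 on the PVN arrays, and 24.2, 25.5, 17.9 and 28.8 on the SON arrays. The groups overlapped throughout, SHR RVLM replicate 1 and PVN replicate 4 stood highest, and the differences of the RVLM were 0.14 from NIL (95% interval −0.38 to 0.66), 0.04 from PVN (−0.48 to 0.56) and −0.08 from SON (−0.63 to 0.48), none of them called. Without PVN replicate 3 the difference from PVN was 0.036.

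The other probe set of Gata3 separated the medulla from the rest. It was 23.8, 32.9, 39.5, 36.6 and 27.6 on the SHR RVLM arrays. It was 1.19, 4.99, 0.614, 3.02 and 2.39 on the NIL arrays, 1.17, 1.02, 1.99, 1.72 and 7.91 on the PVN arrays, and 8.38, 1.99, 1.55 and 8.30 on the SON arrays. The dimmest SHR RVLM array exceeded the brightest array of each other structure, as 9.79% of genes did against PVN, 14.1% against SON and 19.3% against NIL. The difference was 1.42 from NIL (SE 0.128, limma adjusted p = 4.77e-09), 1.40 from PVN (SE 0.128, adjusted p = 2.85e-08) and 1.24 from SON (SE 0.136, adjusted p = 3.90e-07), and 1.39 from PVN without PVN replicate 3. The probe set exceeded 43.1% of all probe sets on the median SHR RVLM array and 3.53% on the median PVN array, and values so near the bottom of an array have no order. The size of the difference is therefore loosely determined: with no pseudocount it was 4.13 from NIL, 4.03 from PVN and 3.12 from SON, and with a pseudocount of 64 it was 0.55, 0.54 and 0.50 in the same order, called each time. Which probe set reports the Gata3 transcript in these tissues was not tested. Tal1, the partner of GATA factors in GABA neurons, was called higher in SHR RVLM too, with 79.1 ± 12.3 (SD, n = 5) against 43.5 ± 8.30 in NIL, 52.6 ± 8.01 in PVN and 49.3 ± 8.15 in SON. The 5 GABA and glycine neuron genes, Tal1 included, summed to 1132 to 1341 in SHR RVLM, against 52.4 to 77.1 in NIL, 1212 to 2231 in PVN and 613 to 1183 in SON. Of these 5 genes, 1 was called higher in SHR RVLM than in PVN (Tal1) and 1 lower (Gad1, −0.52, limma adjusted p = 0.0414). The other probe set of Gad1 was called higher (0.49, adjusted p = 0.0498), and neither was called without PVN replicate 3. Without that array Gad2 was called higher (0.565, limma adjusted p = 0.0219), so 2 of the 5 genes were higher (Gad2 and Tal1) and 0 lower. Against SON 3 of 5 were called higher, and against NIL 4 of 5. Over all genes 36.6%, 36.4% and 56.8% were called against PVN, SON and NIL. The part of these genes in the Gata3 values was not tested.

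**Figure D2:**
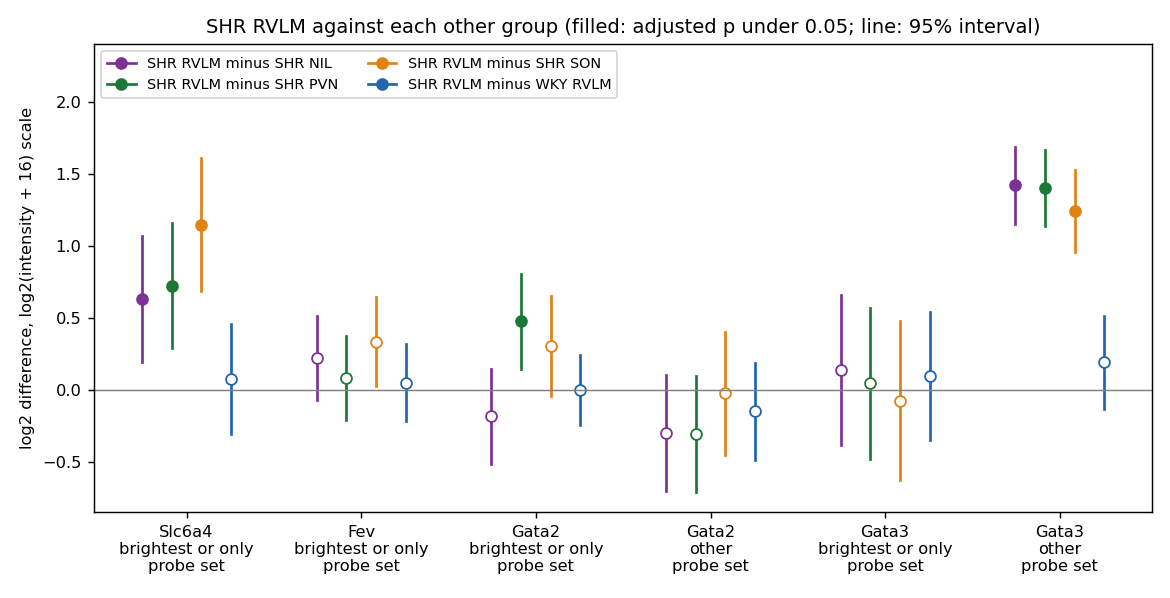
Log2 difference on the log2(intensity + 16) scale (vertical axis) of SHR RVLM minus each other group for the 6 probe sets along the horizontal axis; filled circles passed an adjusted p of 0.05 and lines are 95% intervals. All 3 structure differences of Slc6a4 and of the other Gata3 probe set are filled and above 0, and every difference from WKY RVLM is open and spans 0.

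Counted by the brightest probe set, 2 of the 4 measured genes were called in RVLM minus PVN (Slc6a4 and Gata2), where 36.6% of all genes were called. In RVLM minus SON 1 of 4 was called (Slc6a4) against 36.4% of all genes, and in RVLM minus NIL 1 of 4 (Slc6a4) against 56.8%. In NIL minus PVN and NIL minus SON 1 of 4 was called (Gata2), against 47.1% and 42.1% of all genes. In PVN minus SON limma called 0 of 4, with 0 at an unadjusted p under 0.05, against 12% of all genes. With 4 genes these shares do not stand clear of the background. The median difference of the 4 genes was 0.28 in RVLM minus PVN, 0.32 in RVLM minus SON and 0.18 in RVLM minus NIL, against −0.05, −0.04 and −0.06 over all genes.

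Between the strains, 0 of the 4 genes were called in the RVLM by limma, with 0 at an unadjusted p under 0.05, and 0.83% of all genes were called. Slc6a4 was 39.8, 37.2, 52.6, 26.6 and 41.5 on the SHR RVLM arrays, against 25.3, 52.3, 39.97, 45.4 and 21.5 on the WKY RVLM arrays. Fev had the SHR values given above, with a mean of 29.1 ± 5.25, against 37.2, 27.7, 27.7, 24.9 and 18.97 in WKY RVLM. The strains overlapped for both genes. The difference of SHR minus WKY was 0.07 for Slc6a4 (95% interval −0.31 to 0.46, adjusted p = 0.948) and 0.05 for Fev (−0.22 to 0.32, adjusted p = 0.952).

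The GATA factors also overlapped between the strains. Gata2 averaged 52.9 ± 6.24 in SHR RVLM, against 60.0, 60.5, 56.8, 50.2 and 35.3 on the WKY arrays, with a difference of −0.0029 (95% interval −0.25 to 0.24, adjusted p = 0.998). The brightest Gata3 probe set was 9.26 to 51.2 in SHR RVLM, against 15.97, 17.5, 18.5, 20.7 and 17.5 in WKY RVLM, with a difference of 0.09 (−0.35 to 0.54, adjusted p = 0.941). The other Gata3 probe set was 23.8 to 39.5 in SHR RVLM, against 27.9, 40.4, 20.6, 20.1 and 21.0 in WKY RVLM, with a difference of 0.19 (−0.13 to 0.51, adjusted p = 0.797). These intervals leave room for strain differences of up to 0.54 on this scale in the brightest Gata3 probe set and 0.51 in the other, and a p above the threshold does not show that the strains were equal.

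The other genes of serotonin signalling were taken by role, and brightness is given per gene. Of 4 measured genes of synthesis and its cofactor tetrahydrobiopterin (of 6 listed), Qdpr, which regenerates the cofactor, was higher in SHR RVLM than in NIL, PVN and SON. Its intensity was 2865 ± 345 in SHR RVLM, 336 ± 19.1 in NIL, 996 ± 82.0 in PVN, 912 ± 110 in SON and 3687 ± 572 in WKY RVLM (SD), with differences of 3.12 from NIL, 1.56 from PVN and 1.71 from SON (limma adjusted p of 1.43e-09 or less). Gch1 and Pts, which make the cofactor, were lower in SHR RVLM than in NIL, with differences of −0.89 and −0.40, and were not called against PVN or SON. Ddc, shared with catecholamine neurons, averaged 88.1 ± 11.5 in SHR RVLM, 69.4 ± 9.08 in NIL, 127 ± 35.8 in PVN and 65.0 ± 5.53 in SON. No comparison of the RVLM called Ddc with all arrays, although without PVN replicate 3 it was lower in SHR RVLM than in PVN by −0.56 (adjusted p = 0.000283), and Gch1 by −0.40 (adjusted p = 0.0187). The other probe set of Ddc gave −0.12 in that comparison without PVN replicate 3 (limma adjusted p = 0.714). That of Gch1 gave −0.22 (adjusted p = 0.377). Ddc was higher in PVN than in SON by 0.80 (adjusted p = 0.00346) by its brightest probe set. Its other probe set gave 0.14 there (adjusted p = 0.801). Qdpr and Ddc act in other cells too, so neither is a marker of serotonin neurons.

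Of 7 genes of storage and breakdown, Slc18a2 and Maoa were higher in SHR RVLM than in each other SHR structure. Slc18a2, the vesicular monoamine transporter, was 105 ± 11.1 in SHR RVLM, 24.9 ± 2.33 in NIL, 66.2 ± 22.9 in PVN and 45.5 ± 5.86 in SON, with differences of 1.63, 0.66 and 1.04 in that order (limma adjusted p of 0.00290 or less). Its 2 other probe sets passed against NIL (0.64 and 1.78) and gave 0.05 and 0.25 against PVN, neither called, and −0.07 (not called) and 0.78 (called) against SON. Without PVN replicate 3 the brightest probe set gave 0.47 against PVN (adjusted p = 0.00274) and the others −0.065 and −0.042. The monoamine oxidase gene Maoa was 408 ± 17.6 in SHR RVLM, 201 ± 13.0 in NIL, 245 ± 43.4 in PVN and 223 ± 16.8 in SON. Maob, the oxidase found in serotonin neurons and astrocytes, went the other way, with 375 ± 42.7 in SHR RVLM, 806 ± 66.0 in NIL, 723 ± 78.8 in PVN and 664 ± 48.4 in SON. Aldh2, which acts after the oxidases, was likewise lower in SHR RVLM, by −1.32 against NIL, −0.57 against PVN and −0.63 against SON. Slc18a1, the transporter of endocrine cells, was lower than in SON (−0.77, adjusted p = 0.00140).

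Of 5 measured transcription factors of the serotonin programme (of 9 listed), Nkx6-1, a ventral patterning factor, was higher in SHR RVLM than in NIL (2.05), PVN (0.93) and SON (1.06). Its intensity was 81.1 ± 22.5 in SHR RVLM, 8.24 ± 4.44 in NIL, 35.7 ± 4.16 in PVN and 32.1 ± 7.54 in SON. Nkx2-2, which specifies ventral precursors and stays on in oligodendrocyte precursors, was 66.0 ± 12.7 in SHR RVLM, against 9.92 ± 4.53 in NIL, 75.5 ± 15.002 in PVN and 31.6 ± 4.14 in SON, and was called against NIL and SON but not PVN. En2 was higher than in NIL by 0.50 (adjusted p = 0.00966). Lmx1b, a further factor of the programme, had no probe set under the rule and was not analysed here.

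Of 14 serotonin receptor genes, 5 were called higher and 1 lower in SHR RVLM than in NIL, 3 higher and 2 lower than in PVN, and 4 higher and 1 lower than in SON. These counts, 6, 5 and 5 of 14, do not exceed the shares of all genes called in these comparisons (56.8%, 36.6% and 36.4%), and the last 2 are close to them. Htr2c, a receptor coupled to phospholipase C, was 1431 ± 80.8 in SHR RVLM, 81.7 ± 10.2 in NIL, 549 ± 90.3 in PVN and 358 ± 101 in SON. Its differences were 3.98, 1.42 and 2.06 in that order (limma adjusted p of 1.69e-07 or less), and its other probe set was called in the same direction (0.85, 0.75 and 0.97). Htr1a, the inhibitory receptor that serotonin neurons carry on their cell bodies, was 15.8 to 18.8 in SHR RVLM, against 0.852 to 10.4 in NIL, 0.863 to 14.1 in PVN and 2.51 to 6.94 in SON, with no overlap and differences of 0.74, 0.67 and 0.66. Among all genes, 19.3%, 9.79% and 14.1% were higher in SHR RVLM without overlap in the same order. These Htr1a values are dim, all below the lowest array median of 35.9, so the size of the differences is loosely determined. Htr5b was higher in all 3 comparisons (0.52, 0.61 and 0.71).

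The remaining receptor calls differed by structure. By its brightest probe set Htr7 was higher in SHR RVLM than in NIL (1.17) and SON (0.37). The probe sets of Htr7 did not move alike. NIL minus PVN was −1.315 by the brightest (limma adjusted p = 3.91e-08), and 0.20 and −0.07 by others, neither called. RVLM minus PVN was −0.14 by the brightest (adjusted p = 0.455), while another was called higher (0.36, adjusted p = 0.0275). Htr1b was higher in SHR RVLM than in NIL (0.58). Htr3a, the ion channel subunit, was lower than in NIL, with 39.1 ± 9.87 in SHR RVLM and 99.3 ± 9.07 in NIL (−1.01). Htr4 was lower than in PVN (−0.39). Htr2a was lower than in PVN (−0.60) and SON (−0.83) by its brightest probe set, while another of its probe sets was called the opposite way (0.55 and 0.82), so its direction is not settled. Median differences of the receptor list were 0.09 from NIL, 0.0057 from PVN and 0.14 from SON, against −0.06, −0.05 and −0.04 over all genes.

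Medullary serotonin neurons can also release peptides. Tac1, the precursor of substance P, was 165 ± 33.7 in SHR RVLM, 14.2 ± 14.0 in NIL, 75.9 ± 20.1 in PVN and 51.0 ± 18.5 in SON, with differences of 2.73, 1.04 and 1.52 in that order. Trh, which medullary serotonin neurons share with the thyroid axis neurons of the PVN, was 31.2 ± 17.5 in SHR RVLM against 777 ± 394 in PVN (−3.86), and was called against neither NIL nor SON. Tac1 is also made by many other neurons, and the cell types behind these values were not resolved by pooled tissue.

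Leaving out PVN replicate 3, an alternative chosen after the data were seen, kept the RVLM minus PVN calls of Qdpr, Slc18a2, Maoa, Maob, Aldh2, Nkx6-1, Htr1a, Htr2c, Htr5b, Htr2a, Htr4, Tac1, Trh and Tal1, each in its direction. Htr5b and Htr4 were then close to the threshold (adjusted p = 0.0384 and 0.0416). By their brightest probe sets, synthesis genes called lower in SHR RVLM than in PVN numbered 2 without that array, against 0 with it. The receptor counts of this comparison stayed at 3 higher and 2 lower. Of the other lists, with all arrays, 3, 1 and 1 of the 4 synthesis genes were called against NIL, PVN and SON, 4, 4 and 5 of the 7 storage and breakdown genes, and 3, 1 and 2 of the 5 transcription factors, against the same shares of all genes.

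**Figure D3:**
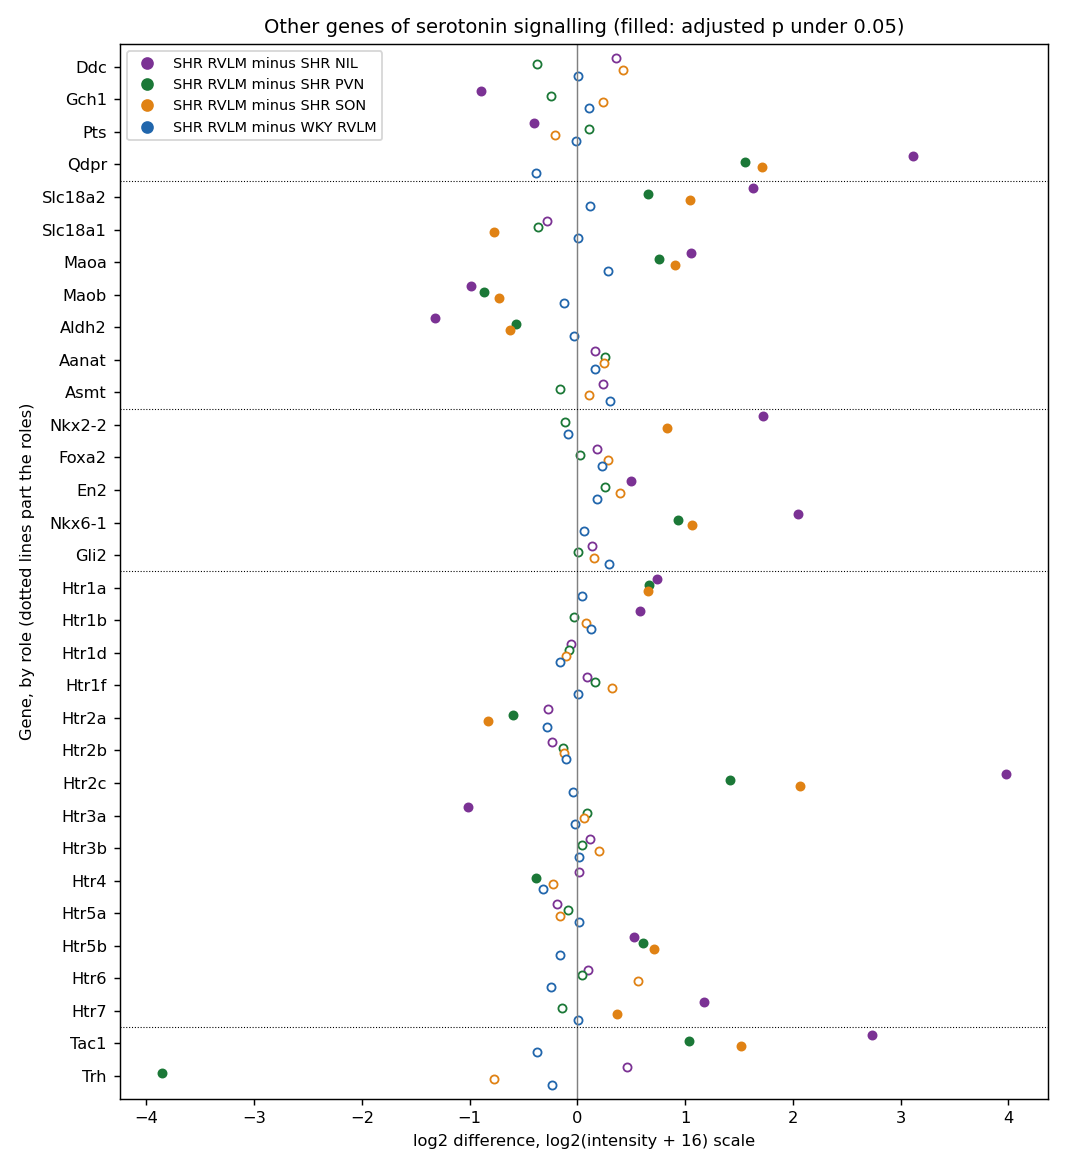
Log2 difference on the log2(intensity + 16) scale (horizontal axis) of SHR RVLM minus each other group for the other serotonin genes, down the page by role; filled circles passed an adjusted p of 0.05. Qdpr, Slc18a2, Maoa, Nkx6-1, Htr1a, Htr2c, Htr5b and Tac1 are filled right of 0 against all 3 structures, Maob and Aldh2 left of 0, and the circles for WKY RVLM are all open.

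Between the strains, limma called 0 of the 32 other measured serotonin genes in the RVLM, against 0.83% of all genes. At an unadjusted p under 0.05 there were 7. The share of all genes at that level is not given here, so the 7 are not read as an excess. Maoa, named after its values were seen, was 408 ± 17.6 in SHR RVLM against 327 ± 34.0 in WKY RVLM (SD, n = 5 each). Its ranges were 391 to 434 against 276 to 369, with a difference of 0.29 (limma adjusted p = 0.113). The share of all genes without overlap between the strains is not given here. Tac1 was 165 ± 33.7 against 213 ± 31.6 (−0.38, adjusted p = 0.430), and Qdpr 2865 ± 345 against 3687 ± 572 (−0.39, adjusted p = 0.414). Slc18a2 was 105 ± 11.1 against 94.2 ± 13.6 (0.12, adjusted p = 0.816), and Htr2c 1431 ± 80.8 against 1446 ± 177 (−0.04, adjusted p = 0.957). Maob was 375 ± 42.7 against 402 ± 36.1 (−0.13, adjusted p = 0.805).

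The last question was whether serotonin neuron genes moved together from pool to pool within the RVLM. Over the 10 RVLM arrays, 6 pairs of genes were correlated on log2(intensity + 16), and 0 had an adjusted permutation p under 0.05, nor had any an unadjusted p for Pearson's r under 0.05. Slc6a4 and Gata2 had r = 0.54 (permutation p = 0.101, adjusted p = 0.303) and rho = 0.37 (p = 0.295, adjusted p = 0.733), and r was 0.63 without the 2 arrays farthest from the median of Slc6a4. Around the mean of each strain their r was 0.55 (exact permutation p = 0.141). Without WKY RVLM replicate 1 their r was 0.80 (adjusted permutation p = 0.0430), and the pair passed with no other array left out.

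Slc6a4 and Fev had r = 0.08 (permutation p = 0.831, adjusted p = 0.989) and rho = 0.19 (p = 0.607, adjusted p = 0.733), with r = 0.07 without the 2 farthest arrays. Fev and the brightest Gata3 probe set ran in opposite directions, with r = −0.55 (permutation p = 0.1002, adjusted p = 0.303), rho = −0.72 (p = 0.0234, adjusted p = 0.141), r = −0.58 around the strain means (exact permutation p = 0.0194, adjusted p = 0.116) and r = −0.77 without the 2 farthest arrays. With the other Gata3 probe set, chosen as an alternative after the data were seen, Fev and Gata3 had r = 0.26 (permutation p = 0.464), so the sign depended on the probe set. The pairs of Fev and Gata2 (r = 0.39, rho = 0.22), Gata3 and Gata2 (r = 0.18, rho = −0.15) and Slc6a4 and Gata3 (r = 0.01, rho = −0.13) had permutation p of 0.269, 0.601 and 0.989 for r. Without the 2 farthest arrays these were r = −0.51, −0.51 and −0.13.

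**Figure D4:**
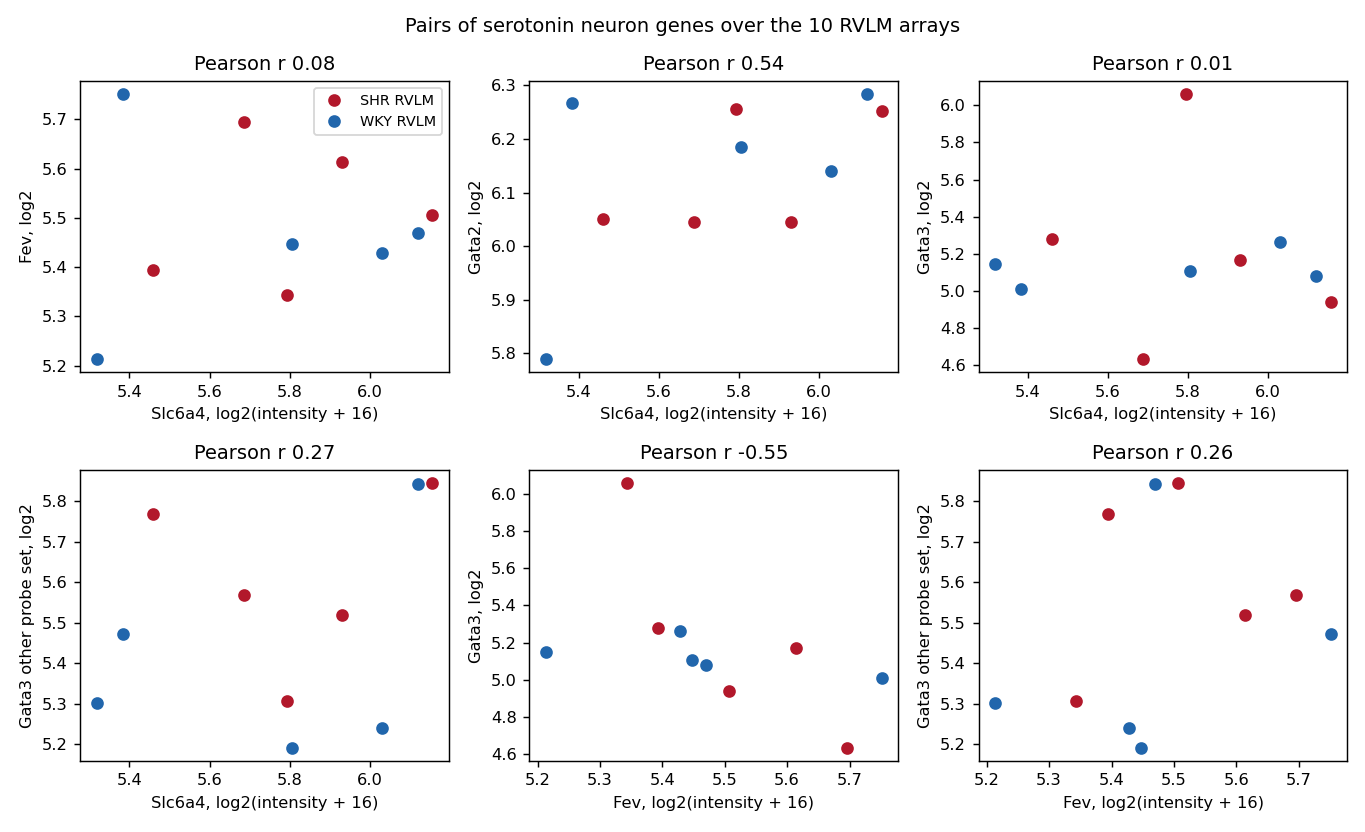
Pairs of serotonin neuron genes over the 10 RVLM arrays, both axes on the log2(intensity + 16) scale, red for SHR and blue for WKY, with Pearson's r above each panel. Slc6a4 and Gata2 have the highest r of these panels (0.54), Slc6a4 and Fev scatter (r = 0.08), and Fev with Gata3 changes sign between the probe sets (r = −0.55 and 0.26).

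Each gene was also set against Th, Dbh and Pnmt, the synthesis genes of the catecholamine neurons in the same tissue. Of 12 pairs, 0 had an adjusted permutation p under 0.05 and 1 had an unadjusted p under 0.05. Slc6a4 and Th had r = 0.63 (permutation p = 0.0563, adjusted p = 0.338) and rho = 0.58 (p = 0.0891, adjusted p = 0.464), with r = 0.64 around the strain means and r = 0.69 without the 2 farthest arrays. Gata3 and Dbh had r = −0.60 (permutation p = 0.0441, adjusted p = 0.338) and rho = −0.49 (p = 0.155, adjusted p = 0.464), and r = 0.0014 without the 2 farthest arrays, so this relation rested on those arrays. Fev and Dbh had r = 0.56 (permutation p = 0.0970, adjusted p = 0.388) and rho = 0.52 (p = 0.135, adjusted p = 0.464).

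The genes most like Slc6a4 were ranked among 8554 genes with a mean RVLM intensity of at least 50, as a description over arrays that share their scaling. Around the strain means of the 10 RVLM arrays the 5 highest correlations were with Tecpr2 (0.95), Gne (0.94), Akr1c15 (0.90), Cryzl1-ps1 (0.90) and B4galt1 (0.88), against a median of 0.04 over all genes ranked. Tac1 had 0.61 (rank 195) and Ddc 0.47 (rank 586), while Slc18a2, which loads serotonin into vesicles, had −0.74 (rank 8511). Over all 24 arrays the 5 highest were Pter (0.78), Tcea1 (0.77), Kcnk1 (0.77), Crhbp (0.76) and Rab14 (0.76), with Pnmt at 0.72 (rank 69) and Slc18a2 at 0.51 (rank 1018). For the other Gata3 probe set, ranked after its values were seen, the 5 highest over the 24 arrays were Hoxc4 (0.95), Sncg (0.95), Hoxb2 (0.95), Gjb1 (0.94) and Carhsp1 (0.94), with Pnmt at 0.94 (rank 7).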

How the data were processed

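Messenger RNA was measured on 24 rat arrays, each 1 pool of 5 male rats. Deposited values are linear intensity per probe set, made with GCOS 1.2 per the submitters' processing notes, with settings not named there. The 2% trimmed mean of these deposited intensities was 100.02 to 100.03 on every array. Of 31099 probe sets, 57 controls were left out. By the array annotation 20826 had 1 gene, 436 several and 9780 none.

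Arrays were median-scaled (factors 0.879 to 1.14), 16 was added and log2 taken. The tests were limma's (3.58.1, R 4.3.3; lmFit, then eBayes with a trend on intensity), unfiltered and adjusted over 31042 probe sets. The 6 structure comparisons came from 1 fit of the 19 SHR arrays, and the strain comparison from the 10 RVLM arrays. Pools counted as independent, but the labels do not say whether structures came from the same rats, so p-values measure only the spread between these samples. Pearson and Spearman correlations had two-sided permutation p-values (100000 resamples), and correlations of deviations exact ones within strains. The scripts were tested on simulated data.

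The members and gene lists were chosen with earlier results of these data known. Named genes were the members, Ddc, Slc18a2, Lmx1b, Maob, Tac1 and Trh, at most 4 other called genes per list and comparison (those with the largest differences), markers that moved with a result, and the 5 genes most like Tph2. Since Tph2 had no probe set, Slc6a4 took its place, and 6 and 12 pairs were correlated in place of 10 and 15. Maoa, Qdpr and Htr2c were named in the strain comparison after their values were seen. Alternatives were unscaled deposited values, quantile normalization, other pseudocounts, a filter on dim probe sets, eBayes without a trend, arrayWeights, a replicate block, gene means, other arrays in the fit and leaving out each array.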

Additional observations from a re-analysis of the deposited data

Results flagged for a closer look

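Single arrays stood apart within their groups by Dixon's test at the 95% level, which by chance marks about 1 group in 20, for 2 probe sets. Slc6a4 had an intensity of 6.12 on SHR NIL replicate 1, far below the 23.9 to 28.9 of the other 4 NIL arrays. The other Gata3 probe set had an intensity of 7.91 on SHR PVN replicate 5, against 1.02 to 1.99 on the other 4 PVN arrays, still below every RVLM array.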

How the results depend on the processing

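The limits of these results are dim probe sets with no detection calls, probe sets of 1 gene that disagree, and 4 or 5 pools per group. Over all results and settings 1763 values were counted as unchanged, 13 lost and 6 gained a call, 25 counts or values moved and 43 differences changed sign. An uncalled correlation was counted as unchanged if it stayed uncalled, even where its sign changed. A count was counted as unchanged if it stayed near its main value. The cause was not tested unless stated.

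Members called in RVLM minus PVN numbered 1 with no pseudocount, with only probe sets above the 40th percentile kept, and with this filter and no pseudocount. In RVLM minus SON they numbered 0 with the filter and with the filter and no pseudocount, and 2 with a gene as the mean of its probe sets and with only the 2 groups in the fit. In RVLM minus NIL they numbered 0 with no pseudocount, the filter, or both, and 2 with gene means. The filter itself removed Slc6a4, Fev, both Gata3 probe sets and the second Gata2 probe set from the structure fit.

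With gene means Gata3 became 0.72 in RVLM minus PVN, 0.78 in RVLM minus NIL and 0.58 in RVLM minus SON (limma adjusted p of 0.000151, 2.53e-05 and 0.00205), since its other probe set enters the mean, Gata2 became 0.08 in RVLM minus PVN (adjusted p = 0.655), and Gata2 in PVN minus SON became 0.057.

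Genes called in PVN minus SON numbered 2999 with arrayWeights and 539 with the 2 groups alone, against 1708. The other sign changes were of uncalled differences near 0. Gata2 in SHR minus WKY RVLM was 0.018 as deposited and 0.0059 with arrayWeights. Its other probe set in NIL minus PVN was 0.0084 as deposited and 0.014 with quantile normalization, and in RVLM minus SON 0.16 with no pseudocount and 0.0014 with arrayWeights. Gata3 in NIL minus PVN was 0.033 with no pseudocount and 0.079 with arrayWeights, and in RVLM minus SON 0.031 with arrayWeights.

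Deviations of same-numbered arrays correlated weakly, at −0.112 to 0.189, with 3 of 32 pairs over 0.1. The range was 0.048 to 0.154 for PVN with SON and −0.112 to −0.019 for RVLM with PVN. Arrays with different numbers were not correlated for reference, so this check cannot tell whether same-numbered arrays shared rats. With the replicate block, members called were 2, 1 and 1 in RVLM minus PVN, SON and NIL, 1 and 1 in NIL minus PVN and SON, and 0 in PVN minus SON and in SHR minus WKY, as without it, genes called in SHR minus WKY RVLM numbered 77 against 118, and Gata3 in RVLM minus SON was 0.021.

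With each array left out in turn, members called were 1 to 2 in RVLM minus PVN, 1 to 1 in RVLM minus SON, 0 to 1 in RVLM minus NIL, 1 to 1 in NIL minus PVN, 0 to 1 in NIL minus SON, 0 to 0 in PVN minus SON and 0 to 0 in SHR minus WKY RVLM. Genes called were 4719 to 5574, 4444 to 5660, 7679 to 8431, 6252 to 7059, 5378 to 6437, 1023 to 2565 and 83 to 115 in the same order. The ends of the PVN minus SON range came without SON replicate 3 (1023) and without PVN replicate 3 (2565). Pairs of members called in the RVLM were 0 to 1, the 1 without WKY RVLM replicate 1, and pairs with catecholamine genes 0 to 0.

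Ranges that crossed 0 were, for SHR minus WKY RVLM, Slc6a4 at −0.029 to 0.17, Fev at −0.014 to 0.12, Gata2 at −0.088 to 0.034 and Gata3 at −0.11 to 0.24. For RVLM minus PVN they were Fev at −0.012 to 0.16 and Gata3 at −0.18 to 0.23, for RVLM minus NIL Gata3 at −0.074 to 0.28, and for RVLM minus SON Gata3 at −0.29 to 0.069 and the other Gata2 probe set at −0.21 to 0.083. For NIL minus PVN they were Gata3 at −0.31 to 0.097, its other probe set at −0.066 to 0.065 and the other Gata2 probe set at −0.12 to 0.12, and for PVN minus SON Gata3 at −0.31 to 0.10.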
